A study of Mus musculus with 2 samples.

Results

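CD8-negative T cells with at most 1 regulatory marker were picked out, cell by cell, from leukocytes of subcutaneous TSA tumours. A cell belonged when it held at least 1 UMI (a counted molecule) of Cd3e and at least 1 of Cd3d or Cd3g, none of Cd8a or Cd8b1, UMIs of no more than 1 of the 5 genes Foxp3, Il2ra, Ikzf2, Tnfrsf4 and Ctla4, and under 0.2% of its UMIs from C1qa, C1qb and C1qc. Ncr1 was free to vary. In all, 65 of 6198 cells met the rule, 30 of them untreated and 35 from the NAM library. TSA is a mammary adenocarcinoma line, and its cells had been injected under the skin of BALB/c mice. Mice were randomised at a tumour area of 0.25 cm2, and the NAM group then drank water with 0.5% nicotinamide (NAM, a form of vitamin B3) for 10 days, while the untreated group did not. CD45+ cells were enriched with magnetic beads and captured on the 10x Genomics Single Cell 3′ version 2 platform, with 1 library per group and 3 mice pooled in each. Treatment, library and mice therefore cannot be told apart, and no test over samples was possible. All intervals are exact 95% intervals that cover counting error only.

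Most T cells carry either CD4 or CD8 beside the CD3 complex that signals for the antigen receptor. T cells with neither include gamma delta T cells, natural killer T (NKT) cells and other innate-like lymphocytes, which share receptors and effector molecules with natural killer (NK) cells and can respond to cytokines without antigen. In tumours such cells can secrete chemokines, among them XCL1, which attracts cross-presenting dendritic cells, and can kill with granzymes and perforin. Because single-cell profiles are shallow, a cell without a CD8 UMI may still have carried the transcript.

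The untreated library held 2922 cells with 29161823 UMIs, and the NAM library 3276 cells with 32090120 UMIs. The chosen cells were shallower than the average cell of either library. They held 152975 UMIs in the untreated library (median 4673.5 per cell) and 210087 in the NAM library (median 4367), against library medians of 9056 and 9128. Their median mitochondrial share was 2.28% in both. Of 11 barcodes that occurred in both libraries, 0 belonged to the chosen cells. Comparison classes were rebuilt with rules of the same kind. CD8 T cells met the same CD3 rule with a Cd8a or Cd8b1 UMI (98 untreated and 153 NAM cells). NK cells held Ncr1 and no Cd3e (80 and 40 cells). Regulatory-like T cells lacked CD8 and held 2 or more of the 5 regulatory genes (61 and 66 cells), and macrophages held C1q at 0.5% of UMIs or more and no CD3 (1772 and 1952 cells).

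A group of 5 droplets stood apart from the other members by depth and by macrophage transcripts, at 0.5% of their UMIs or more over 12 macrophage markers, a limit chosen after the values were seen. The 2 in the untreated library held 9646 and 9797 UMIs and supplied 12.7% of the members' UMIs there. The 3 in the NAM library held 15572 to 17118 UMIs and supplied 23.4%. No other member exceeded 0.366% in the untreated library or 0.294% in the NAM library. The osteoclast and macrophage genes Ctsk and Acp5 were almost confined to these droplets, with 95 and 62 UMIs in the untreated ones and 339 and 317 in the NAM ones. The other members held 2 and 18 UMIs of Ctsk and Acp5 in the untreated library, and 6 and 16 in the NAM library. Values are given with and without these droplets where it matters. Summed over all members, macrophage markers reached 2634 and 5036 counts per 1000000 UMIs (CPM, untreated first here and throughout), and 1797 and 1411 CPM without the 5 droplets. CD8 T cells held 1880 and 1772 CPM on the same basis. B cell markers stood at 0 and 4.76 CPM, dendritic cell markers at 0 and 23.8 CPM, tumour epithelial markers at 26.1 and 14.3 CPM, and erythroid genes at 26.1 and 66.6 CPM. Mast cell markers stood at 869 and 28.6 CPM. A single untreated cell with 3502 UMIs held 130 mast cell UMIs, 35 of Cma1, 48 of Tpsb2 and 25 of Cpa3. The part that these transcripts play in the values below was tested only by leaving droplets out.

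**Figure D1:**
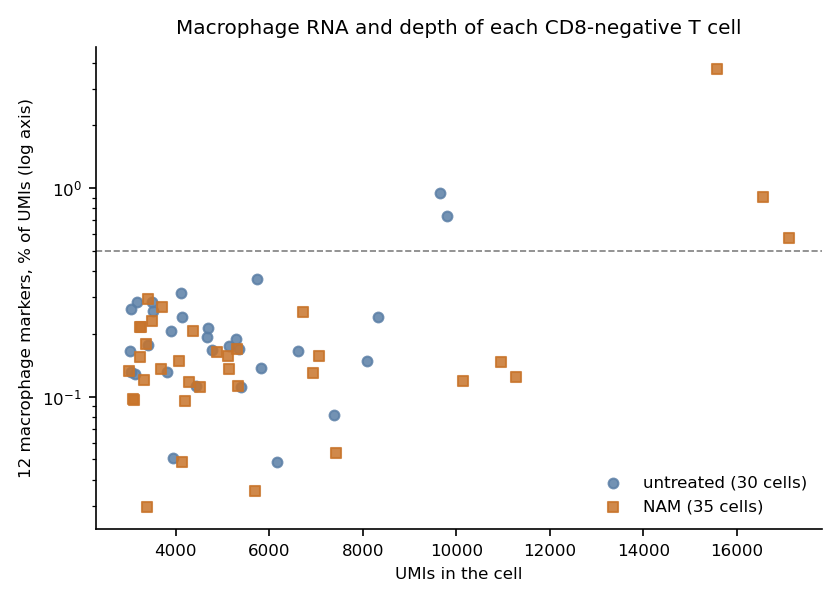
Total UMIs of each chosen cell (horizontal axis) against the share of its UMIs from 12 macrophage markers (vertical axis, percent, log scale), with untreated cells and NAM cells marked separately and a dashed line at 0.5%. The 2 untreated and 3 NAM droplets above the line are also the deepest of their own library.

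They made up 1.03% (0.694 to 1.46) of untreated cells and 1.07% (0.745 to 1.48) of NAM cells, a log2 ratio of 0.06 (-0.69 to 0.81). The interval includes 0. Among the 205 and 283 cells that met the CD3 rule alone, they were 14.6% and 12.4%. CD8 T cells gave a log2 ratio of 0.48 (0.10 to 0.86) for their share, NK cells -1.16 (-1.75 to -0.60) and regulatory-like T cells -0.05 (-0.58 to 0.48).

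The label was then set against the markers. T cell genes were seen in the group as a whole. UMIs of Cd3e, Cd3d and Cd3g, which the rule required, numbered 2 to 46 per cell with a median of 13 in each library. T cell genes that the rule did not use were also present. Lck, the kinase that starts T cell receptor signalling, was seen in 27 of 30 and 30 of 35 cells at 477 and 462 CPM, and macrophages held 1.60 and 2.45 CPM. Cd2, an adhesion receptor of T and NK cells, was seen in 25 and 27 cells at 431 and 409 CPM. Lck was not seen in 3 of the 5 droplets rich in macrophage markers, and 2 of these 3 held only 2 CD3 UMIs each. Thy1 stood at 438 and 386 CPM, and Lat, the adaptor that couples the receptor to its downstream kinases, at 203 (138 to 288) and 176 (124 to 243) CPM. Constant-region genes of the alpha beta and gamma delta receptors (Trac, Trbc1, Trbc2, Trdc and the Tcrg-C genes) had no matching symbol and were not analysed here, so these receptor lineages could not be told apart.

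Helper T cell markers were scarce. Cd4 gave 6 UMIs in 4 of 30 untreated cells and 1 UMI in 1 of 35 NAM cells. After each cell was thinned to 3000 UMIs, Cd4 was seen in 13.3% and 0% of the chosen cells. It was seen in 39.3% and 31.8% of regulatory-like T cells and in 2.82% and 2.25% of macrophages, whose median depths were 4686 and 4304.5 UMIs and 9635.5 and 9669 UMIs. The NAM value is at the macrophage level or below. Cd40lg, the helper ligand for CD40, gave 5 UMIs in 2 untreated cells and 0 in NAM cells, and Zbtb7b, the factor that directs CD4 lineage choice, gave 1 UMI in each library. Several cytokines and factors of polarised helper cells were at or near 0. Il17a, Il17f, Bcl6 and Cxcr5 had 0 UMIs, Il4 had 1 and 1, Il13 1 and 0, and Il21 1 and 0.

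Innate-like markers were uneven. Xcl1 was seen in 18 of 30 and 24 of 35 cells. Gzma, a granzyme abundant in NK and NKT cells, gave only 2 UMIs in 2 cells and 6 UMIs in 5 cells, and the thinned shares of 3.33% and 8.57% stood beside 1.35% and 1.18% in macrophages. Zbtb16, the factor PLZF of NKT cells, gave 3 UMIs and 1, and Klrb1c, which encodes the NK1.1 family member NKR-P1C, gave 1 and 7. Sox13, Cd163l1 and Il17a, genes of interleukin-17-producing gamma delta T cells, had 0 UMIs in both libraries, and Blk and 5830411N06Rik had 0 and 1. The group is therefore described by its leading genes, and neither a helper nor a named innate-like lineage is assigned to it.

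Of the regulatory genes in the rule, Ikzf2 was the one that the members carried. Ikzf2 encodes Helios, an Ikaros-family factor of regulatory and some other T cells. It had UMIs in 17 of 30 and 24 of 35 cells, while Tnfrsf4 was seen in 3 and 1, Ctla4 in 3 and 0, and Foxp3 and Il2ra in 0. None of the 5 genes was seen in 7 and 10 cells, so 48 of the 65 held a regulatory gene and the group is not free of them. Those 7 and 10 cells include the droplets rich in macrophage markers of 9797 UMIs (untreated) and of 15572 and 17118 UMIs (NAM). Values given below for the 7 and 10 cells keep these droplets. Just outside the limit were 22 cells with 2 of the 5 genes, of which 10 held Cd4, 5 held Cd7 and 5 held Xcl1. On the CD8 side, 14 of 251 CD8 T cells owed their class to a single Cd8a or Cd8b1 UMI, and 4 of those held Cd7, 7 held Fcer1g, 5 held Xcl1 and 9 held Klrd1.

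A set of genes shared with NK cells stood at high levels in the chosen cells, but NK markers as a list did not. The 10 NK markers summed to 307 and 476 CPM, beside 375 and 285 CPM in CD8 T cells and 1277 and 1649 CPM in NK cells. Against CD8 T cells 6 were tested, 2 were past 2-fold higher and 4 lower, with a median of -1.48. Against NK cells 5 of 6 were lower (median -2.15), although the list holds Ncr1, which set that class. Xcl1 (GRCm38 chr1:164931644-164935527, minus strand) was at 758 (627 to 910) CPM in untreated and 995 (865 to 1139) CPM in NAM cells. Its thinned share was 56.7% and 62.9%, against 0.282% and 0.307% of macrophages. Cd7 (chr11:121036747-121039418, minus strand), an immunoglobulin-family receptor of T and NK cells, was at 699 (573 to 845) and 914 (789 to 1053) CPM. Both genes were therefore far above the level in macrophages, where Cd7 had a thinned share of 0.226% and 0.154%. Cd7 was seen in 20 of 30 and 17 of 35 cells, so its share and its CPM run in opposite directions between the libraries and no order is read. Ly6c2 (chr15:75108158-75111970, minus strand), a surface protein of memory T cells and monocytes, was at 2046 (1826 to 2286) and 2356 (2153 to 2573) CPM, in 21 of 30 and 27 of 35 cells. Ly6c1, a near-identical neighbour whose reads may be shared with Ly6c2, was at 1105 and 1428 CPM.

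Signalling adaptors of NK receptors were also seen. Fcer1g (chr1:171229572-171234365, minus strand), the Fc receptor gamma chain, was at 850 (710 to 1009) and 1338 (1186 to 1503) CPM in 21 and 30 cells. The droplets rich in macrophage markers held 5 and 19 of these Fcer1g UMIs in the untreated library and 22, 30 and 44 in the NAM library. Macrophages held 4002 and 4448 CPM of Fcer1g and nearly all had a UMI (99.8% and 100% after thinning). The part of free macrophage RNA in this level was not tested beyond the CD8 T cells of the same libraries, which held 193 and 243 CPM. Tyrobp, which encodes the adaptor DAP12, was at 771 and 1128 CPM, and at 509 and 622 CPM without the 5 droplets. Among receptors, Klrd1, which encodes CD94, was at 601 (485 to 738) and 505 (413 to 610) CPM in 23 and 26 cells. Il2rb, the interleukin-2 and interleukin-15 receptor beta chain, was at 431 (334 to 549) and 514 (422 to 621) CPM in 21 and 30 cells. Klra7, a Ly49 receptor for MHC class I, was at 261 (187 to 356) and 295 (226 to 378) CPM in 8 and 10 cells. These receptors belong to gene families whose members can share reads. Among effectors, Gzmb was at 1026 (872 to 1200) and 923 (798 to 1063) CPM in 14 and 17 cells. Nkg7, a granule protein, was at 1556 and 1652 CPM in 25 and 30 cells, and Ccl5, a chemokine of effector cells, was at 1386 and 1176 CPM in 22 cells of each library. Prf1, which encodes perforin, had 0 UMIs in either library.

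**Figure D2:**
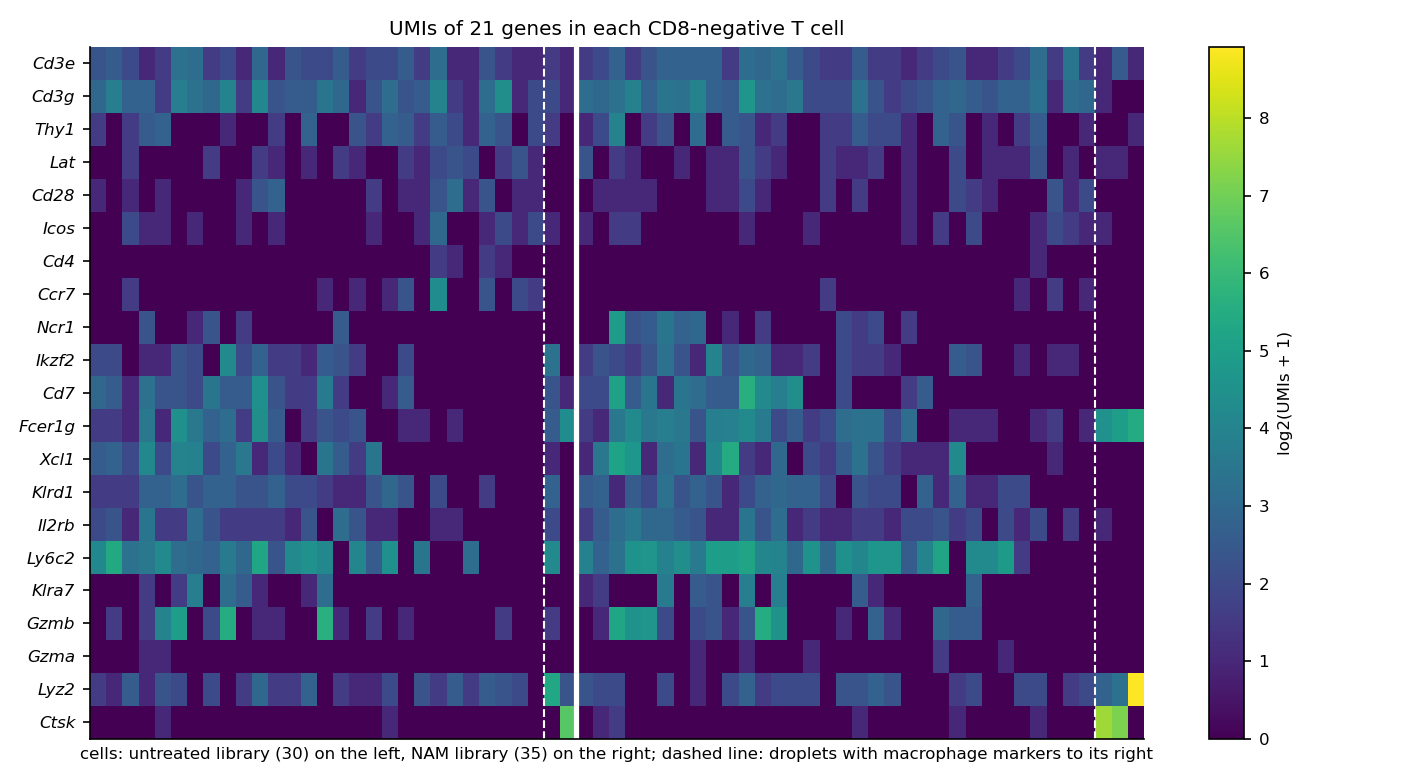
Heat map of 21 genes (rows) in the 65 chosen cells (columns), as log2(UMIs + 1) on the colour scale, with the 30 untreated cells left and the 35 NAM cells right and, in each library, the droplets with macrophage markers to the right of a dashed line. Cd7, Fcer1g, Xcl1, Klrd1, Il2rb and Ly6c2 are seen all together in 25 of the 60 cells that are not set apart, and Cd4 is filled in 5 cells.

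Against CD8 T cells of the same library, whose median depth was close (4617.5 and 4498 UMIs), the chosen cells held more Cd7, Ly49 and Ly6c transcripts and fewer transcripts of checkpoint receptors and of effector-fate factors. Over the 5295 genes with 30 or more UMIs in the classes compared, 1.70% were 2-fold or more higher in the chosen cells in both libraries and 3.02% lower. Without droplets rich in macrophage markers in either class, which left 96 and 152 CD8 T cells, these shares were 1.34% and 3.56%. The median log2 ratio over all of these genes was -0.01. The ratios come from 1 library per group. CD8 T cells were not held to the limit on the 5 regulatory genes, and 36 of 98 and 86 of 153 of them exceeded it, so the comparison was repeated without these cells, a choice made after the values were seen. Of 3833 genes, 1.59% were then 2-fold or more higher and 2.27% lower.

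Among the genes that were higher, Cd7 gave log2 ratios of 2.65 (2.18 to 3.14) in untreated and 3.95 in NAM cells, since CD8 T cells held 111 and 58.5 CPM. Ly6c2 gave 1.95 (1.71 to 2.19) and 1.87 (1.69 to 2.05). Klra7 gave 1.96 (1.27 to 2.66) and 3.00 (2.36 to 3.69), and among the Ly49 genes Klra1, Klra5 and Klra9 gave 1.77 and 3.59, 2.57 and 1.84, and 3.07 and 1.96. These receptors were thus higher in both libraries. In the 7 and 10 cells with none of the 5 regulatory genes Klra7 had 0 UMIs, so its ratios of -2.33 and -2.23 there rest on the pseudocount. The other Ly49 genes are not given for those cells. Fcer1g gave 2.13 (1.75 to 2.52) and 2.46 (2.20 to 2.73), from 193 and 243 CPM in CD8 T cells. Xcl1 gave 1.57 (1.20 to 1.94) in untreated cells and 0.19 (-0.04 to 0.41) in NAM cells. The NAM value rests on 1 CD8 T cell, which held 349 of the 715 Xcl1 UMIs of its class, while the thinned share of CD8 T cells with Xcl1 was 25.5% in both libraries. Against CD8 T cells within the limit, Xcl1 gave 1.49 and 1.21, Cd7 2.20 and 3.23, and Ly6c2 1.45 and 0.95. Of 16 innate-like genes, 11 were tested, 4 of them (Cd7, Fcer1g, Ly6c2 and Tyrobp) were past 2-fold higher and 0 lower, with a median of 0.88. Within the limit 4 of 10 were higher, 1 lower (Gzma, at -4.51 and -2.01) and the median was 1.09. Of 22 NK receptor genes, 17 were tested, with 6 higher (Klra1, Klra3, Klra5, Klra7, Klra9 and Ncr1), 4 lower (Klrc1, Klrc2, Klre1 and Klri2) and a median of 0.17 (0.59 within the limit). Without droplets rich in macrophage markers 7 were higher and 2 lower (Klre1 and Klri2), with a median of 0.37. The NKG2 genes Klrc1 (-1.27 and -1.32) and Klrc2 (-1.53 and -1.23) were then at -1.08 and -0.95 and at -1.36 and -0.86. Klrd1, the partner of the NKG2 proteins, gave -0.75 and -1.15, and Il2rb gave -0.06 and 0.19. Irf7 was the 1 past 2-fold among 10 tested of 18 type I interferon genes, at 1.45 and 1.15 (0.99 and 0.52 against CD8 T cells within the limit), and the migration receptor Cxcr4 was higher, at 1.93 and 1.61.

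Several inhibitory receptors were lower. Lag3 stood at 78.4 and 47.6 CPM against 707 and 772 CPM in CD8 T cells, log2 ratios of -3.11 (-4.14 to -2.35) and -3.95 (-5.09 to -3.13). Pdcd1, which encodes PD-1, gave -2.59 (-3.49 to -1.90) and -2.16 (-2.73 to -1.67). Havcr2, which encodes TIM-3, had 0 UMIs in untreated cells, at least 4.30-fold lower against a floor of 3 UMIs over the group, and 1 UMI in NAM cells, a log2 ratio of -3.51 (-9.40 to -1.55). Of 14 inhibitory receptor genes, 10 were tested, 0 were higher, 5 lower (Cd200, Entpd1, Havcr2, Lag3 and Pdcd1) and the median was -1.25. Without droplets rich in macrophage markers Cd244 was past 2-fold higher, at 1.10 and 1.19, and 5 were lower. Against CD8 T cells within the limit 5 of 8 were lower and the median was -1.96, with Lag3 at -3.07 and -3.80 and Pdcd1 at -2.39 and -1.79. Of 24 fate-factor genes, 17 were tested and 7 were lower (Eomes, Id2, Irf4, Irf8, Maf, Tox and Zeb2), with a median of -1.04. Without droplets rich in macrophage markers in either class the count of lower genes was 4 and the median -0.78, and within the limit it was 5 of 15 and -0.75. Id2, a regulator of innate and effector lymphocytes, gave -2.45 (-3.12 to -1.90) and -1.80 (-2.25 to -1.41). Effector genes were mixed. Of 19 granzyme and perforin genes, 15 were tested, with Gzmc past 2-fold higher, Gzmd, Gzmk, Nkg7 and Prf1 past 2-fold lower, and a median of -0.96. Without droplets rich in macrophage markers 3 were lower, with a median of -0.68. Within the limit 3 of 11 were lower, with a median of -0.14. Gzmb gave 1.14 (0.84 to 1.43) in untreated and 0.13 in NAM cells, and -1.65 and -2.83 in the cells with none of the 5 regulatory genes. Gzmc turned to -1.73 and -2.60 in those cells, and to -0.95 in NAM cells without Ncr1. Ifng, the type 1 cytokine, stood at 39.2 and 4.76 CPM against 188 and 233 CPM. Ccl5 gave -1.30 and -1.63 and Nkg7 -1.09 (-1.29 to -0.89) and -1.21 (-1.37 to -1.05). The antigen receptor list had 12 of 15 genes tested, 3 lower (Cd6, Themis and Zap70) and a median of -0.54, or 2 lower and -0.31 without droplets rich in macrophage markers. Of 18 proliferation genes tested, 0 were past 2-fold and the median was 0.06.

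Several of the genes with the lowest ratios to CD8 T cells were absent or nearly so. Nrn1, which encodes neuritin, had 0 UMIs in untreated cells, at least 9.28-fold lower, and 1 UMI in NAM cells. Serpinb9b, a granzyme inhibitor, had 0 UMIs in both, at least 6.05-fold and 5.81-fold lower. Gm156 also had 0, at least 7.23-fold and 5.64-fold lower. Serpinb9b and Gm156 were thus not detectable in the chosen cells at this depth. Penk, which encodes proenkephalin, gave -3.68 in untreated cells and had 0 UMIs in NAM cells, at least 14.5-fold lower. Slc17a6, a glutamate transporter, gave -4.08 and -4.88. Gzmk, the granzyme of early memory CD8 T cells, was at least 4.69-fold lower in untreated cells and gave -3.55 in NAM cells.

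**Figure D3:**
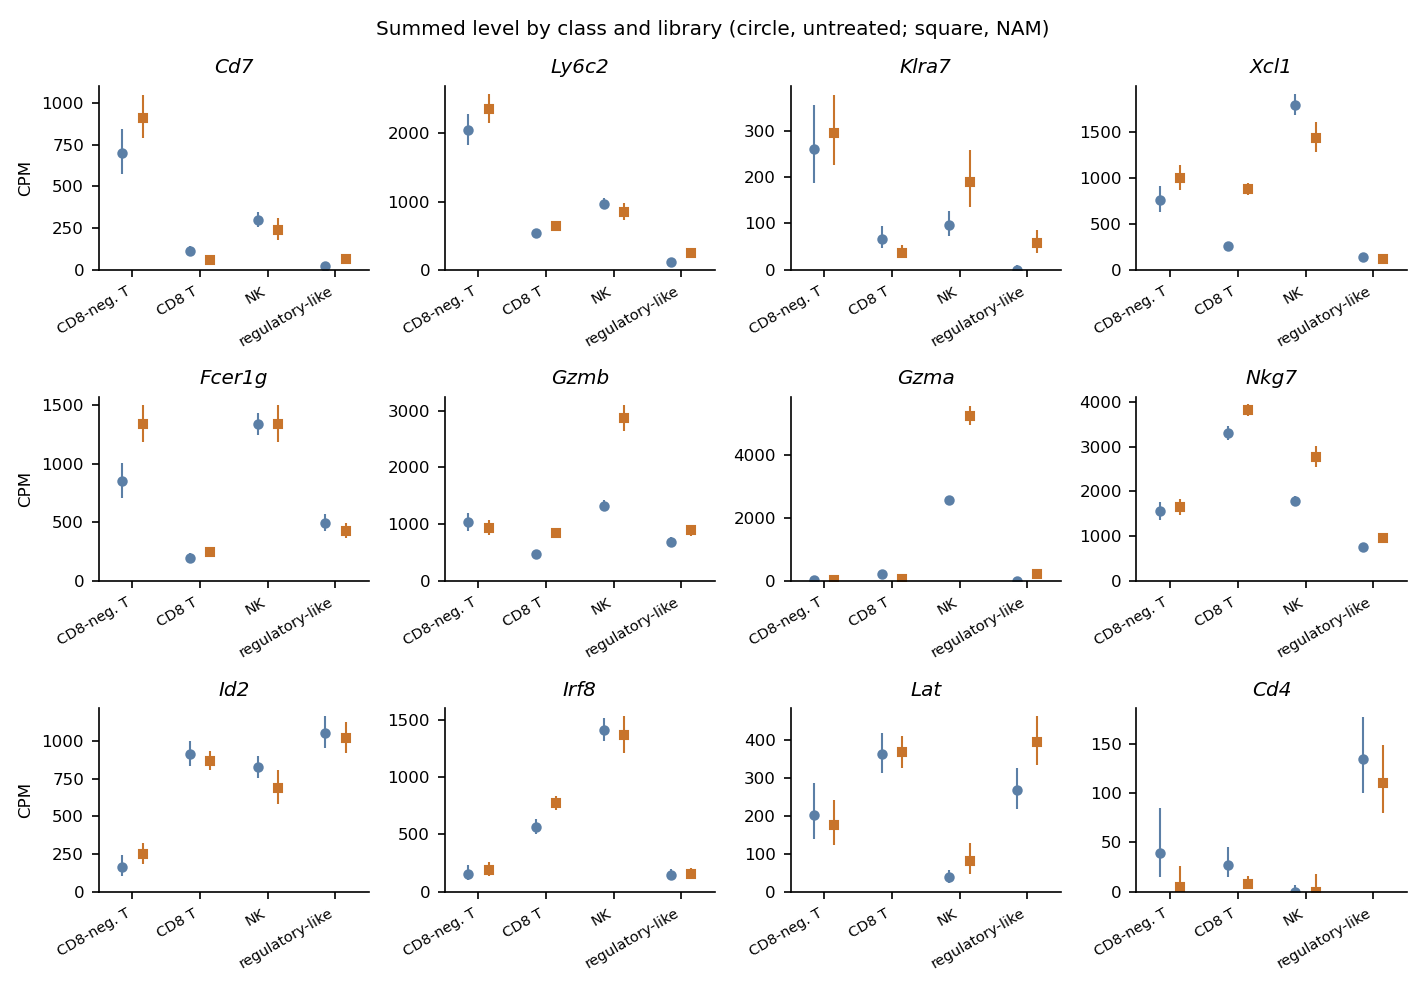
CPM with 95% counting intervals (linear scale) of 12 genes in the chosen cells, CD8 T cells, NK cells and regulatory-like T cells, with circles for untreated and squares for NAM. Cd7 is highest in the chosen cells (699 and 914 CPM), while Gzma (13.1 and 28.6 CPM) and Id2 (163 and 248 CPM) are low there.

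Against NK cells, the chosen cells held more Cd7, Ly6c and Lat and far less Gzma, Gzmc, Gzmd, Gzme and Gzmf. Of 4207 genes, 1.14% were 2-fold or more higher in both libraries and 2.07% lower, with a median log2 ratio of -0.02. Without droplets rich in macrophage markers in either class, which left 72 of the 80 untreated NK cells and all 40 NAM ones, the shares were 1.25% and 2.31% of 3593 genes. Gzma differed most. Its log2 ratios were -7.29 (-10.66 to -5.76, from 2 UMIs) and -7.41 (-8.97 to -6.39), since NK cells held 2563 and 5247 CPM. Gzmc gave -4.48 (-5.13 to -3.95) and -3.50 (-4.12 to -2.97). Gzmd had 0 UMIs, at least 33.4-fold and 12.6-fold lower, although 319 of the 379 Gzmd UMIs of untreated NK cells came from 1 cell, and Gzmc to Gzmg can share reads. Prf1 was at least 2.29-fold and 3.66-fold lower. Gzmb stood closer, at -0.36 (-0.62 to -0.11) and -1.63. Of 19 granzyme and perforin genes, 15 were tested and 8 were lower (Gzma, Gzmc, Gzmd, Gzme, Gzmf, Prf1, Serpinb6b and Serpinb9), with a median of -2.24. Of 16 fate factors tested, 3 were lower (Eomes, Id2 and Irf8), 0 higher and the median was -0.43. Without droplets rich in macrophage markers, 4 of 13 were lower (Tbx21 added) and 1 higher (Lef1). Irf8 gave -3.15 (-3.83 to -2.59) and -2.83 (-3.36 to -2.37), Eomes -1.76 and -2.11, and Id2 -2.31 and -1.47. Car2, a carbonic anhydrase, gave -3.71 and -2.76, and the chemokine receptor Ccr2 gave -2.76 and -2.49.

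On the other side, Cd7 gave 1.23 (0.86 to 1.58) and 1.93 (1.49 to 2.42) against NK cells, and Ly6c2 1.09 and 1.48. In the NAM cells with none of the 5 regulatory genes, Cd7 gave -1.01. Those cells include the droplets of 15572 and 17118 UMIs, which held 0 Cd7 UMIs, and their part in this value was not tested. Lat, which the rule did not use, gave 2.40 (1.58 to 3.27) and 1.10 (0.26 to 2.05). Cxcr6, a receptor of tissue-resident lymphocytes, gave 1.83 and 1.22, Rhoh 1.34 and 2.18, and Ly6a 2.11 and 1.39. Of 9 antigen receptor signalling genes tested, 1 was past 2-fold higher (Lat) and the median was 0.52, with 3 higher and a median of 0.58 without droplets rich in macrophage markers. Xcl1 was lower than in NK cells, with log2 ratios of -1.24 (-1.53 to -0.96) and -0.52 (-0.79 to -0.26), and Fcer1g gave -0.65 (-0.94 to -0.39) and 0.00 (-0.24 to 0.25). Klrd1 gave -0.14 and -0.90 and Il2rb -0.38 and -0.56. Of 13 innate-like genes tested, 2 were higher (Cd7 and Ly6c2) and 5 lower (Gzma, Klrb1a, Klrb1b, Klrb1c and Tyrobp), with a median of -0.88. Without droplets rich in macrophage markers 1 was higher and 4 lower, with a median of -0.77. The 16 NK receptor genes tested had 1 higher (Klra1), 3 lower (Klre1, Klri2 and Ncr1) and a median of -0.52. Ncr1 set the NK class, so its ratio is not a result.

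Regulatory-like T cells are the other CD8-negative T cells under the C1q limit, and the rule itself parts them from the chosen cells, so these ratios are given as a description. Of 4284 genes, 1.82% were 2-fold or more higher in the chosen cells in both libraries and 5.28% lower (1.93% and 6.13% without droplets rich in macrophage markers in either class, which left 58 and 61 regulatory-like cells). The genes shared with NK cells were higher. Cd7 stood at 18.9 and 64.5 CPM in regulatory-like T cells, log2 ratios of 5.12 (4.12 to 6.56) and 3.80 (3.22 to 4.49). Xcl1 gave 2.51 (2.02 to 3.03) and 3.06 (2.60 to 3.56), Ly6c2 4.12 and 3.26, and Klrd1 3.31 and 1.82. Genes of activated CD4 and regulatory T cells that the rule did not use were lower. Tnfrsf18, which encodes GITR, gave -1.79 (-2.24 to -1.39) and -2.29 (-2.71 to -1.91), Tnfrsf9, which encodes 4-1BB, -2.67 and -2.39, and Icos -1.80 and -2.19. Of 12 NK receptor genes tested, 8 were higher and 1 lower, with a median of 2.32, and of 12 costimulation genes tested 0 were higher and 3 lower, with a median of -0.93.

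Most of the chosen cells held several of the genes shared with NK cells. A set of 6 (Cd7, Fcer1g, Xcl1, Klrd1, Il2rb and Ly6c2), chosen after the values were seen, was counted in cells thinned to 3000 UMIs, without the droplets rich in macrophage markers. Several of the 6, Cd7 and Ly6c2 among them, were already known to be higher than in CD8 T cells and regulatory-like T cells. The distance from those classes therefore follows in part from the choice, and the shares are given as a description only. Of 28 untreated cells, 18 (64.3%, 44.1 to 81.4) held 4 or more of the 6 genes, and of 32 NAM cells 24 did (75.0%, 56.6 to 88.5). All 6 were held by 9 and 6 cells. In CD8 T cells 17 of 96 (17.7%) and 23 of 152 (15.1%) held 4 or more, and in NK cells 61 of 72 (84.7%) and 30 of 40 (75.0%). Regulatory-like T cells gave 2 of 58 and 9 of 61, and 1 of 3724 macrophages did so. Over both libraries the shares were 70.0% (56.8 to 81.2) of the chosen cells, 16.1% (11.8 to 21.3) of CD8 T cells and 81.3% (72.8 to 88.0) of NK cells. On counts as deposited the share in the chosen cells was 73.3%.

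**Figure D4:**
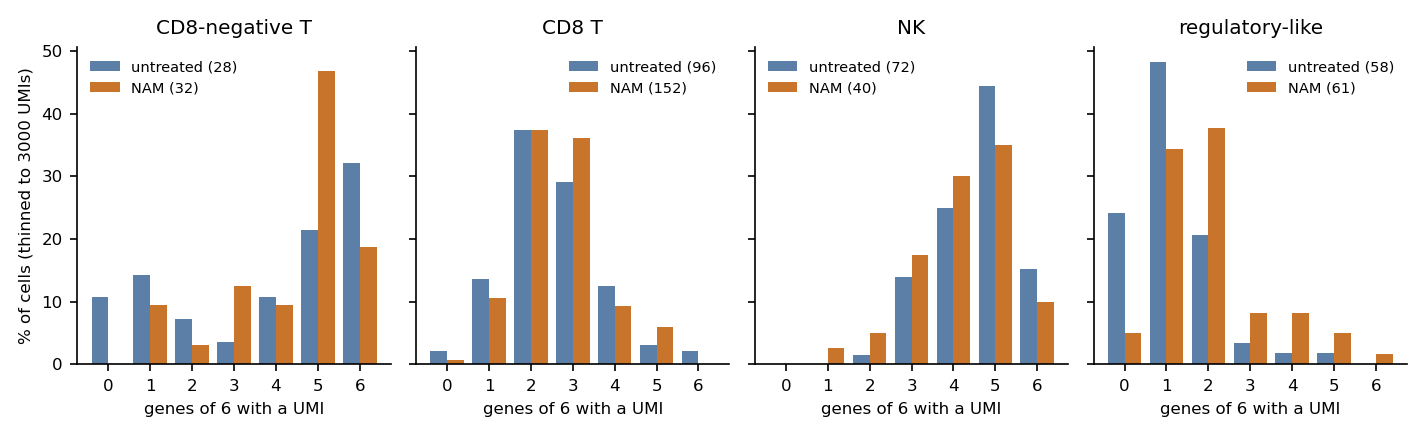
Percentage of cells (vertical axis) by how many of Cd7, Fcer1g, Xcl1, Klrd1, Il2rb and Ly6c2 had a UMI after thinning to 3000 UMIs (horizontal axis, 0 to 6), for 60 chosen cells, 248 CD8 T cells, 112 NK cells and 119 regulatory-like T cells. With both libraries pooled, the chosen cells and NK cells peak at 5 genes, CD8 T cells at 2 and regulatory-like T cells at 1. Taken alone, untreated chosen cells peak at 6 genes (9 of 28 cells) and NAM regulatory-like T cells at 2 (23 of 61 cells).

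The cells were not uniform, and levels of the same genes differed between cells with and without Ikzf2. Splitting by this gene was a choice made after the values were seen. The rule shapes the sides, since a cell with Ikzf2 could hold no Ctla4 or Tnfrsf4, and the split is given as a description only. All 5 cells with Cd4 fell on the side without Ikzf2. Without the 5 droplets, 40 cells held an Ikzf2 UMI (16 of 28 untreated and 24 of 32 NAM cells, median 4673.5 UMIs) and 20 did not (median 3446.5 UMIs). Cd7 stood at 1313 CPM in the cells with Ikzf2 and 223 CPM in those without, and was seen in 30 of the 40 and 5 of the 20. Xcl1 stood at 1447 and 247 CPM, Fcer1g at 1280 and 271 CPM, and Gzmb at 1600 and 165 CPM. The same order held within each library. In untreated cells with and without Ikzf2, Cd7 was at 1142 and 219 CPM, Xcl1 at 1256 and 292 CPM and Gzmb at 1878 and 128 CPM. In NAM cells, Cd7 was at 1417 and 231 CPM, Xcl1 at 1562 and 165 CPM and Gzmb at 1432 and 231 CPM. Klra7 was seen in 18 of the 40 cells at 487 CPM and in 0 of the 20, where its interval reached 43.4 CPM.

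Another group of genes ran the other way. Cxcr6 stood at 139 CPM in the cells with Ikzf2 and 694 CPM in those without, Icos, a costimulatory receptor, at 95.5 and 294 CPM, and Ccr7, the lymph node homing receptor, at 43.0 and 400 CPM, the latter largely from 1 untreated cell with 19 UMIs. Klf2, a quiescence and trafficking factor, stood at 377 and 1000 CPM, Lat at 167 and 365 CPM, and Il7r at 38.2 and 176 CPM. In the 15 cells with neither Ikzf2 nor Cd4, Cxcr6 stood at only 204 CPM, Ccr7 at 187 CPM and Icos at 221 CPM, while Klf2 was at 1307 CPM, Xcl1 at 357 CPM and Cd7 at 323 CPM. Lck (559 and 553 CPM) and Cd2 (502 and 482 CPM) were close on both sides. Ly6c2 was at 2995 and 1078 CPM in untreated cells with and without Ikzf2, but at 2956 and 3603 CPM in NAM cells, and Ccl5 turned in the same way, from 1929 and 895 CPM to 1233 and 2810 CPM. Depth differed between the 2 groups of cells, so the split was repeated on thinned counts, where Cd7 was seen in 76.5% of 34 cells with Ikzf2 and 30.8% of 26 without, Xcl1 in 79.4% and 42.3%, and Fcer1g in 85.3% and 53.8%. In CD8 T cells split the same way (102 and 146 cells), Cd7 was seen in 16.7% and 8.90%, Xcl1 in 35.3% and 19.2%, and Gzmb in 35.3% and 48.6%.

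Sorting by Ncr1 and Cd4 gave 3 subsets. Ncr1 (chr7:4337724-4345164, plus strand), which encodes the NK receptor NKp46, had a UMI in 5 of 30 untreated cells (16.7%, 5.64 to 34.7) and 12 of 35 NAM cells (34.3%, 19.1 to 52.2), and these intervals overlap. Cd4 was seen in 4 and 1 cells, neither gene in 21 and 22, and both together in 0 of 65. That count limits cells with a UMI of both to 5.52%, not cells that carry both transcripts. Of the 17 cells with Ncr1, 15 held Cd7, and the subset stood at 1972 CPM of Xcl1, 1637 CPM of Fcer1g, 1260 CPM of Cd7, 2521 CPM of Nkg7, 884 CPM of Il2rb and 346 CPM of Klra1. The 5 cells with Cd4 were unlike them. They had 0 UMIs of Cd7, Xcl1, Ly6c2 and Klra7, each with an upper limit of 141 CPM, and stood at 1801 CPM of Cxcr6, 613 CPM of Cd28, 498 CPM of Lat and 460 CPM of Icos. Ccr7 was at 881 CPM there, but 19 of its 23 UMIs came from 1 cell. The cell with 130 mast cell UMIs is among these 5, and without it Cxcr6 was at 1726 CPM, Cd28 at 708 CPM and Icos at 398 CPM. The 43 cells with neither gene still held Cd7 in 22 cells at 733 CPM, Xcl1 in 25 at 549 CPM, Fcer1g in 32 at 1039 CPM and Ly6c2 in 32 at 2356 CPM. All 5 droplets rich in macrophage markers lie in this subset, and the 38 cells without them held Cd7 in 20 cells at 1001 CPM, Xcl1 in 24 at 765 CPM and Fcer1g in 27 at 753 CPM. The NK-shared genes were therefore not limited to cells with an Ncr1 UMI.

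The comparison of NAM with untreated asks how the cells differed after NAM in the drinking water. Within the chosen cells, 1615 genes had 30 or more UMIs over both libraries. Of these, 4.33% were 2-fold or more higher in the NAM library and 2.79% lower, and without the 5 droplets 2.36% and 2.21% of 1313 genes. The median log2 ratio over all genes was 0.05 (0.07 without the droplets). Of the 1615 genes, 885 were higher in the NAM library, as were 767 of the 1313 without the droplets. Of 16 innate-like genes 8 were tested, 7 were higher and 1 lower, 0 were past 2-fold and the median was 0.32. Without the droplets 8 of 8 were higher, with a median of 0.51. Xcl1 went from 116 to 209 UMIs, a log2 ratio of 0.39 (0.06 to 0.73), and 0.59 (0.26 to 0.93) without the droplets. A pair of NAM cells held 44 and 35 of those UMIs, and Xcl1 gave 1.77 in CD8 T cells and -0.32 in NK cells. Cd7 went from 107 to 192 UMIs, 0.38 (0.04 to 0.74), while its share of cells ran the other way. Fcer1g gave 0.65 (0.35 to 0.97), Ly6c2 0.20 (-0.00 to 0.41) and Il2rb 0.25. The Fcer1g value includes the droplets, which held 5 and 19 of its UMIs in the untreated library and 22, 30 and 44 in the NAM library. The sign was the other in the 7 and 10 cells with none of the 5 regulatory genes, where Xcl1 gave -2.07 and Cd7 -1.51. Those cells include the droplets of 9797 UMIs (untreated) and of 15572 and 17118 UMIs (NAM), which held 0 Xcl1 UMIs. In the untreated library 1 of them held 10 Xcl1 UMIs and another 10 Cd7 UMIs. The part of these cells in the change of sign was not tested. The sign was also the other for Xcl1 without the cells that held Ncr1 (-0.21).

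NK receptor genes had 11 of 22 tested, 2 past 2-fold higher (Ncr1 and Klra1) and a median of -0.05, and 3 higher and a median of 0.24 without the droplets. Ncr1 went from 16 to 74 UMIs, 1.72 (0.96 to 2.63), with 29 of the 74 in 1 cell, and gave -1.62 among the cells with none of the 5 regulatory genes. Klra1 went from 7 to 32 UMIs, 1.66 (0.53 to 3.16). Klra7 stood at 0.17 and Klrd1 at -0.25, closer to the median over all genes.

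The study named 11 genes among other changes in T cells, a list chosen on these libraries that is not independent evidence. Of these, 5 are CD3 and CD8 genes of the rule and were not tested, and 4 of the others had 30 UMIs or more and were tested, 0 were past 2-fold, and the median was 0.12. Gzmb had 157 and 194 UMIs, a log2 ratio of -0.15 (-0.46 to 0.16), against 0.85 (0.64 to 1.07) in CD8 T cells and 1.12 (0.97 to 1.28) in NK cells. Without the droplets the ratio in the chosen cells was 0.05 (-0.26 to 0.37). It rested on few cells, at 1.00 without the 5 cells of each library that held most Gzmb and -1.77 without the cells that held Ncr1, so no order among the classes is read. Fasl, the ligand of the death receptor FAS, gave -0.28 (-1.37 to 0.83), Klrc1 0.39 (-0.15 to 0.97) and Pdcd1 0.65 (-0.24 to 1.67). Lag3 had 12 and 10 UMIs. Cdkn1b, which encodes the cell cycle inhibitor p27 and lay below the minimum of 30 UMIs, had 14 UMIs in untreated and 1 in NAM cells, a log2 ratio of -3.73 (-9.67 to -1.55), and gave -1.29 (-2.17 to -0.47) in CD8 T cells.

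Single genes of quiescence and migration were lower in the NAM library, but their lists were mixed. Of 8 quiescence genes tested, 4 were higher and 4 lower (median -0.25), and without the droplets 4 of 6 were higher (0.29). The medians of chemokine receptors (-0.13) and naive and memory genes (-0.11) also turned without the droplets, to 0.13 and 0.08. Klf2 went from 119 to 83 UMIs, -0.97 (-1.40 to -0.56), and gave -0.97 in CD8 T cells too. Ccr7 went from 37 to 6 UMIs, -2.99 (-4.62 to -1.83), with 19 of the 37 in 1 untreated cell, and gave 0.03 in CD8 T cells. Below the minimum of 30 UMIs, Il7r, the interleukin-7 receptor, went from 17 to 7 UMIs, -1.68 (-3.25 to -0.39), and Gata3 from 20 to 6, -2.11 (-3.80 to -0.83). Ly6a went from 65 to 27 UMIs, -1.71 (-2.43 to -1.06), with 17, 14 and 10 of the 65 in 3 cells. Of these, Klf2, Ccr7 and Il7r were also higher in the cells without Ikzf2. The chemokine Ccl4 went from 58 to 24 UMIs, -1.71 (-2.48 to -1.02), with 25 and 15 of the 58 in 2 cells, and Ccl3, also below 30 UMIs, from 13 to 2. Of 9 chemokine genes, 6 were tested, 5 were lower, 2 of them past 2-fold, and the median was -0.51. Without the droplets 3 of 5 were lower, 1 past 2-fold, and the median was -0.34.

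Heat shock genes had 9 of 14 tested, 3 past 2-fold lower and a median of -0.56. Hspa1a went from 210 to 10 UMIs, -4.78 (-5.93 to -3.94), but 114, 38, 27 and 14 of the 210 lay in 4 cells, and it gave -3.04 in CD8 T cells and -1.57 in macrophages. Hsp90aa1 gave -1.10 (-1.51 to -0.70) and Hspa8 -0.90, against -0.43 and -0.15 in CD8 T cells and -0.46 and -0.09 in macrophages. A pair of ribosomal genes named for their low ratios were lower in the other classes too. Rps27rt gave -1.13 in the chosen cells, -1.10 in CD8 T cells, -0.52 in NK cells and -0.87 in macrophages, and Rps28 gave -0.97, -0.84, -0.57 and -0.82. The library and NAM cannot be told apart. Of 20 immediate early genes 14 were tested, 11 were lower, 5 of them past 2-fold, and the median was -0.35. Without the droplets 8 of 13 were lower, 2 of them past 2-fold, and the median was -0.18. Of 18 type I interferon genes 7 were tested, 6 were lower, 1 of them past 2-fold, and the median was -0.69, with Ifi27l2a at -0.89 (-1.35 to -0.43).

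Among the genes with 100 or more UMIs named by the size of their NAM ratio, the 3 highest were genes of the droplets rich in macrophage markers. Mmp9 went from 18 to 97 UMIs (1.94), but had 1 UMI in each library without the droplets. Acp5 gave 1.59, and -0.43 without them, and Ctsk gave 1.37, and 1.11 (-1.17 to 4.66) without them. The next ranks held Sdhb, Uqcr11, Atp5j, Slc25a4 and S100a11. Sdhb, a subunit of succinate dehydrogenase, gave 1.27, and 0.59 (-0.26 to 1.52) without the droplets. Uqcr11 gave 0.94 and then -0.01, and Atp5j gave 0.89 and then 0.67 (0.20 to 1.18). Of 19 glycolysis genes 12 were tested, 1 was past 2-fold higher and the median was 0.36, and without the droplets 0 of 10 were and the median was 0.15.

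**Figure D5:**
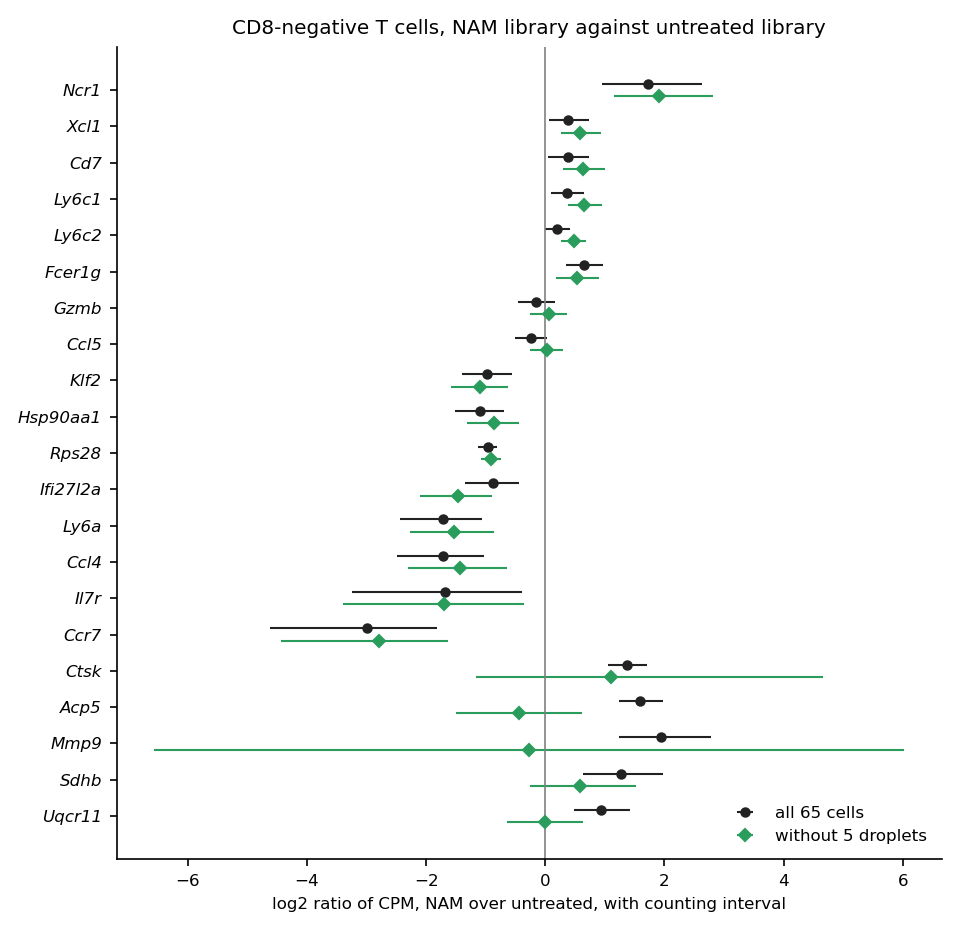
Log2 ratio of NAM to untreated CPM (horizontal axis) with 95% counting intervals for 21 genes in the chosen cells, for all 65 cells and without the 5 droplets rich in macrophage markers. Ncr1 lies to the right of 0 in both, Ccr7, Ly6a and Ccl4 to the left in both, Gzmb spans 0, and Acp5 and Mmp9 change side without the droplets.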

How the data were processed

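CD45+ cells of TSA tumours were profiled in 2 libraries, 1 per group. The authors deposited raw counts of UMIs for each gene in each cell, made with Cell Ranger on mm10 after 10x Genomics Single Cell 3′ version 2 preparation, and every barcode passes the filter in the study's methods. The annotation used for counting is not given in the sources used here. Doublets were not removed. The study's test over single cells was not used, since cells are not replicates.

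The members, the comparison classes and the 36 gene lists (405 genes, 395 with a matching symbol) were chosen with earlier results of these data known. UMIs were summed per class and library and scaled to 1000000. Log2 ratios used a pseudocount of 0.5 UMI and genes with 30 or more UMIs over the groups compared for counts and lists. Ratios of listed genes below this are marked as such. Intervals were exact at 95%, Poisson for CPM, Clopper-Pearson for shares and conditional binomial for ratios, and covered counting error only. Median depths were 4673.5 and 4367 UMIs per chosen cell, so a gene with few UMIs has a wide interval. Shares of cells were also taken after thinning each cell to 3000 UMIs (random seed 1), which left out 0 cells.

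Genes were named from the markers and lists, and as the 10 highest and 10 lowest log2 ratios among genes with 100 or more UMIs that were not gate or mitochondrial genes and stood at or above the macrophage level in CPM. For NAM against untreated the interval had to exclude 0, which 102 of 501 genes met. For the other classes both libraries had to have the same sign. Coordinates are from GENCODE vM21 (GRCm38) for 421 of 422 named genes. Counts against classes are of genes past 2-fold in both libraries. Alternatives covered the gate, depth, scaling, minimum UMIs, pseudocount and weighting, and others (without the 5 droplets at 0.5% or more of macrophage markers, and CD8 T cells held to the same regulatory limit) were chosen after seeing the data. Python 3.11.15, NumPy 2.4.6, SciPy 1.17.1, pandas 2.3.3 and matplotlib 3.10.9 were used, and the scripts were tested on simulated data. A few genes are not reported here.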

Additional observations from a re-analysis of the deposited data

How the results depend on the processing

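No paired analysis was possible because each group is 1 library, and for the same reason no library could be left out. The NAM to untreated ratio of the share of cells stayed within its counting interval under the alternatives run, although the limit of none of the 5 regulatory genes left only 7 and 10 cells. The Ncr1 and Cd4 shares over both libraries stayed within theirs on thinned counts and without the 5 droplets. Counts of genes past 2-fold moved with the minimum of UMIs and the cells kept. The number of genes tested changed too, so the share of genes tested is given in brackets. For genes higher in NAM (70, 4.33%), the count was 45 (2.84%) with the gate on thinned cells and 31 (2.36%) without the 5 droplets. It was 25 (2.77%) with cells thinned, 352 (8.53%) at a minimum of 10 UMIs and 13 (2.59%) at 100. For genes lower in NAM (45, 2.79%), it was 22 (4.61%) in cells with none of the 5 regulatory genes and 29 (2.21%) without the droplets. At 10 UMIs it was 309 (7.49%) and at 100 UMIs 5 (0.998%). Gene lists with a median NAM ratio of 0.5 or more in size numbered 3 of 18, and 5 without cells with Ncr1, 6 at 10 UMIs and 1 at 100. Against CD8 T cells, genes higher (90, 1.70%) numbered 303 (3.66%) at 10 UMIs, 27 (1.23%) at 100 UMIs and 208 (4.30%) with none of the regulatory genes. Genes lower (160, 3.02%) numbered 306 (3.69%), 68 (3.09%) and 331 (6.84%) in that order. They numbered 87 (2.27%) with CD8 T cells held to the same limit on regulatory genes. That choice, made after seeing the data, also turned Hba-a2 in NAM cells to 0.18. Erythroid genes stood at 23.0 and 8159 CPM in all CD8 T cells, against 26.1 and 66.6 CPM in the chosen cells. Against NK cells, genes higher (48, 1.14%) numbered 196 (2.66%) at 10 UMIs, 9 (0.578%) at 100 UMIs and 106 (3.00%) with none of the regulatory genes. With cells thinned they numbered 27 (1.12%). Genes lower (87, 2.07%) numbered 201 (2.73%) at 10 UMIs, 27 (1.73%) at 100 UMIs and 199 (5.62%) with none of the regulatory genes.

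Some named genes changed sign. The 7 and 10 cells with none of the 5 regulatory genes keep some of the droplets rich in macrophage markers, in both libraries. In these cells, NAM ratios were -1.51 for Cd7, -2.07 for Xcl1, -1.62 for Ncr1, -0.32 for Acp5 and -0.21 for Ctsk. Ratios to CD8 T cells there were -1.65 for Gzmb (untreated), -1.73 and -2.60 for Gzmc (untreated and NAM) and -2.33 and -2.23 for Klra7. Ratios to NK cells were -2.85 and -4.60 for Klra7, -0.21 for Ccl5 (untreated) and -1.01 for Cd7 (NAM). Klra7 had 0 UMIs in these cells, so its ratios rest on the pseudocount. Without cells holding Ncr1, NAM ratios were -0.21 for Xcl1 and -0.18 for Ncr1, and ratios to CD8 T cells -2.68 and -0.26 for Ncr1, which this choice sets to 0 UMIs, and -0.95 for Gzmc (NAM). Without the 5 droplets, NAM ratios were -0.43 for Acp5, -0.27 for Mmp9 and -0.0083 for Uqcr11. With such droplets left out of both classes, ratios to CD8 T cells were -0.27 for Acp5 (NAM), -0.54 for Ctsk and -0.77 for Mmp9 (untreated), and the ratio to NK cells was -0.35 for Mmp9 (NAM). Without cells above the 95th percentile of UMIs, NAM ratios were -0.57 for Acp5 and -0.40 for Mmp9. Without the 5 cells per library with most UMIs of the gene, they were -0.82 for Acp5, -0.39 for Mmp9, -0.23 for Cd7 and 0.41 for Ctla2a. With cells thinned, Ccl5 against NK cells (untreated) was -0.37. The cause of these changes was not tested, except where the cells left out held the gene's UMIs. Of 494 NAM ratios recomputed, 408 stayed within the counting interval of the value reported, of 416 ratios to CD8 T cells 347 did, and of 364 to NK cells 312. Of 249 list medians, 198 moved by no more than 0.2.

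With 30 and 35 cells, genes under 30 UMIs entered no count or list and have wide intervals where given. Helper, gamma delta and NAD metabolism genes were mostly below that level, so differences in them were not detectable at this depth. Ratios beside a few cells with many UMIs, such as Hspa1a, Ccr7 and Ncr1, rest on those cells. Counting intervals leave out the spread between mice, which pooling hides.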
